A study of Mus musculus with 6 samples.

Results

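The 8 mature microRNAs (miRNAs) described here come from 5 neighbouring hairpins at the distal end of the imprinted Dlk1-Dio3 locus of the mouse, miR-541, miR-409, miR-412, miR-369 and miR-410. They are 8 of the 1899 miRNA entries counted in each of 6 small RNA libraries of embryonic stem (ES) cells, and were taken by their full mature names. The group was chosen on measured values, for the low reads of the miR-409 5p arm after doxycycline beside its partner arm and its neighbours. The doxycycline values of the 8 miRNAs are therefore a description and support nothing. All 8 are among the 351 entries whose counts average 50 or more per library. None is part of the 12 merged entries that stand for several miRNAs, and none had a read that also matched another entry.

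All cells were ES cells of strain 129/Ola, kept with serum and leukemia inhibitory factor on gelatin, and each group is 1 library. The groups were Wt1 knockout (KO) cells with retinoic acid (RA), wild-type (WT) cells with RA, untreated Wt1 KO cells, Wt1 KO cells in which Wt1 was induced with doxycycline (dox) for 12 h or 24 h, and untreated WT cells. Wt1 encodes a zinc finger transcription factor of kidney and gonad development, and RA is a vitamin A derivative that drives ES cells to differentiate. RA was given at 1 µM (written 1 µm in the labels) for a time not given in the sources used here, and dox at 1 µg/ml. Which clone carries the inducible Wt1 is not stated, so the dox libraries and the untreated Wt1 KO library may be of different lines, and cells given dox without the inducible gene are not analysed here. Wt1 mRNA is not measured by small RNA libraries, so neither the knockout nor the induction could be checked.

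Every comparison is between 2 libraries and has no replicate check, so no test between conditions is given. The libraries held 83626 reads in Wt1 KO with RA and between 1063945 and 6106104 reads in the other 5, and the least precise values are those of Wt1 KO with RA, where 3 reads equal 27.8 normalised CPM, the unit of reads scaled to a common library size. Log2 ratios are of reads after TMM (trimmed mean of M values) scaling, and brackets hold 95% intervals that cover counting error only. A miRNA is called higher or lower where its log2 ratio is at least 1 in size and its interval excludes 0. The miR-290 and miR-302 clusters, the defining miRNAs of ES cells, had reads at 16 to 20 of their 22 entries and took 9.40% of reads in Wt1 KO with RA, 0.753% in WT with RA, 16.9% in untreated Wt1 KO, 23.5% and 21.1% with dox for 12 h and 24 h, and 16.1% in untreated WT. The 5 marker lists of other cell types took at most 0.603% of any library. The highest of these was the mesenchyme and fibroblast list in Wt1 KO with RA (0.603%, 5 of 9 entries with reads), against 0.0275% to 0.0675% in the other 5 libraries. The muscle miRNAs miR-1a-3p and miR-206-3p and the blood miRNAs miR-223-3p and miR-451a had 0 reads in every library. Other entries of the same lists did have reads. The muscle list took 0.000678% to 0.0464% of a library, and the blood and endothelium list 0.0109% to 0.399%. The part of these markers and of the depth in the ratios below was not tested.

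The Dlk1-Dio3 locus is imprinted, and its miRNAs are made from the maternally inherited chromosome, from long noncoding transcripts that include Meg3, Rian and Mirg. Each hairpin is cut into a 5p and a 3p strand, of which usually 1 is loaded into an Argonaute protein and kept while the other is degraded, and bases 2 to 8 of the loaded strand, the seed, pair with target mRNAs. In mouse ES cells, high expression of this locus is known as a mark of full developmental potential. Of the single miRNAs, miR-369 is known as part of a miRNA mixture used to reprogram somatic cells, both arms of miR-409 have been studied in human prostate cancer, and miR-541 has been studied in rat neuronal cells.

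The mature sequences are shown because the arms of 1 hairpin are told apart only by them, with the seed in capitals. They are credited to RefSeq (GRCm38.p6), which matched 8 of 8 members by name and letter for letter with the sequences in the deposited files.
mmu-miR-541-5p: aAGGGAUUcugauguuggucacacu
mmu-miR-409-5p: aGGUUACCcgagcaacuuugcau
mmu-miR-409-3p: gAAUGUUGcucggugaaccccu
mmu-miR-412-5p: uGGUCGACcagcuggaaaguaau
mmu-miR-412-3p: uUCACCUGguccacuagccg
mmu-miR-369-5p: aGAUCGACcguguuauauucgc
mmu-miR-369-3p: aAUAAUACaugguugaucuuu
mmu-miR-410-3p: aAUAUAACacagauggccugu

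No seed is shared between members. The seed of miR-412-3p is also that of miR-1983, and the seed of miR-410-3p is also that of miR-344d-3p and miR-344e-3p. The miR-409 hairpin, the one whose arms came apart under dox, is shown with both mature strands in capitals.
miR-409 hairpin: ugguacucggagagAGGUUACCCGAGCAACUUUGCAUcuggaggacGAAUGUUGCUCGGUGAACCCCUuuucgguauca

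On GRCm38 the 5 hairpins lie within 1387 bases on the plus strand of chromosome 12, chr12:109742409-109743795. They sit in Mirg, a long noncoding RNA gene that GENCODE M21 places at chr12:109729764-109749460. The miR-541 and miR-409 hairpins (chr12:109743158-109743236) are intronic in Mirg. The miR-412 hairpin has 12 bases and the miR-369 hairpin 1 base in an annotated Mirg exon, and the miR-410 hairpin is wholly exonic. The gap from the miR-377 hairpin upstream is 1831 bases, and the gaps inside the group are 659, 52, 49 and 218 bases in the order given. The build behind the deposited counts is not given in the sources used here, and the places come from the RefSeq hairpins.

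Together the 8 miRNAs took 4.53% of the reads in Wt1 KO with RA, 6.21% in WT with RA, 4.14% in untreated Wt1 KO, 4.40% with dox for 12 h, 6.04% with dox for 24 h and 3.84% in untreated WT. Their share of all reads of the locus was lowest in Wt1 KO with RA, at 10.2%, and highest after 24 h of dox, at 22.7%, with 15.6% to 17.9% in the other 4 libraries. Fewer cells of a type and less of a miRNA per cell cannot be told apart in such bulk libraries. mmu-miR-541-5p, mmu-miR-409-3p and mmu-miR-410-3p carried nearly all of these reads, and the other 5 miRNAs held 0.354% to 1.37% of them. miR-541-5p was the main member in 5 libraries, with 62.6% to 73.0% of the group's reads. In Wt1 KO with RA, miR-410-3p held 41.6%, miR-541-5p 36.6% and miR-409-3p 20.5%.

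**Figure D1:**
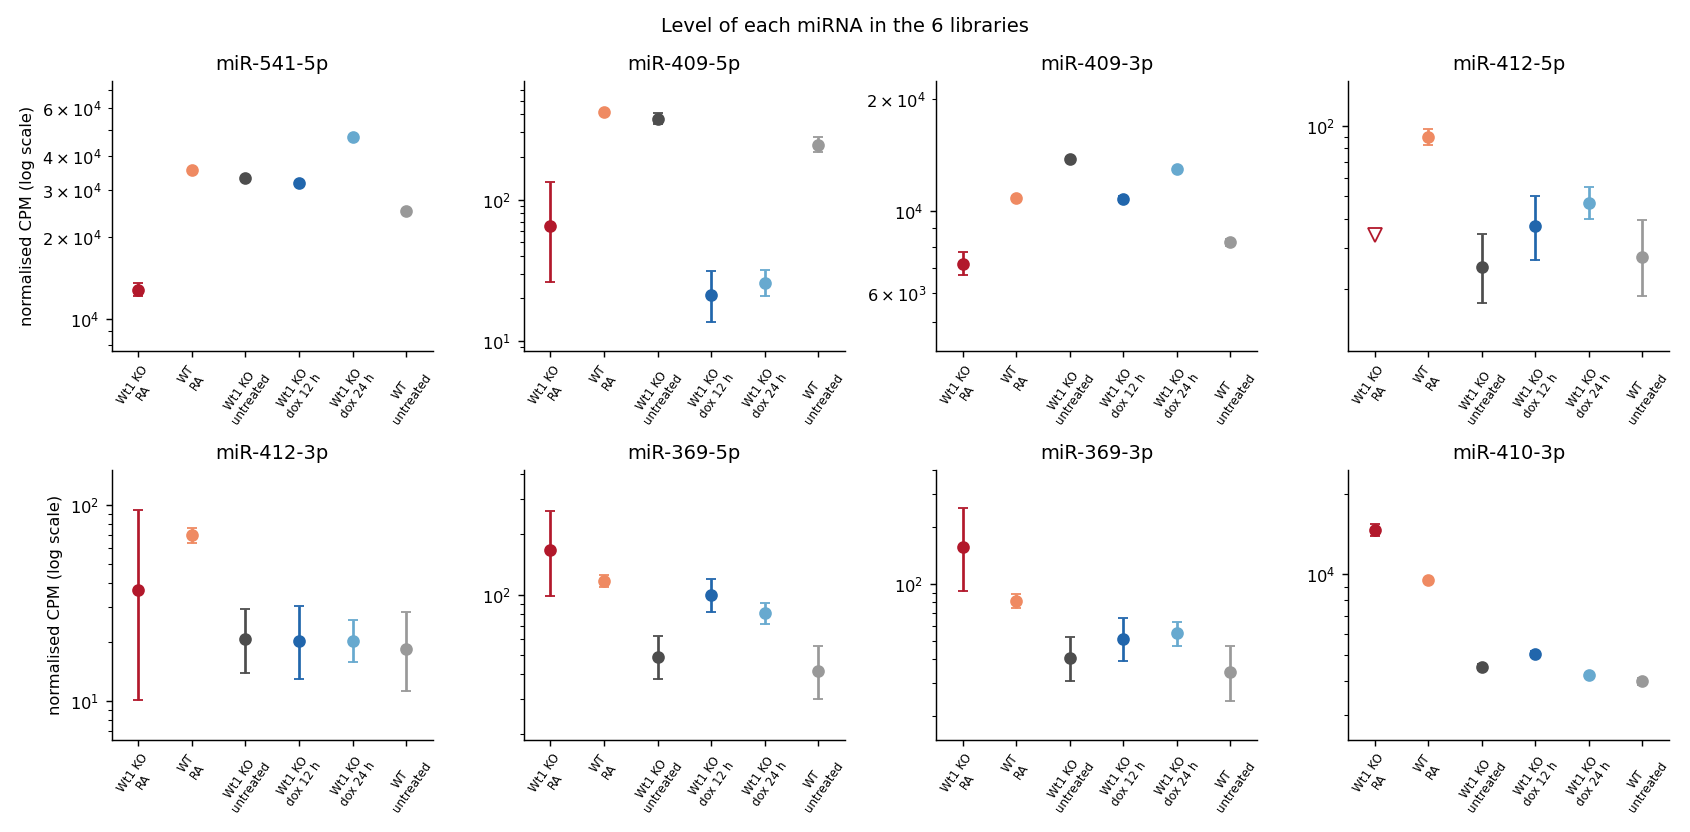
Normalised CPM (log scale, each panel with its own range) of the 8 miRNAs in the 6 libraries, with bars for the 95% counting interval and an open triangle for the upper limit where no read was counted. miR-409-5p lies at 21.2 and 25.9 CPM in the dox libraries, while miR-409-3p lies between 7201 and 13776 CPM in all 6, and miR-410-3p is highest in the RA libraries.

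mmu-miR-409-5p, the minor arm of its hairpin in every library, is the member whose dox values chose the group. It had 7 reads in Wt1 KO with RA, 2782 in WT with RA, 528 in untreated Wt1 KO, 24 at 12 h and 88 at 24 h of dox, and 266 in untreated WT. Scaled, these are 64.8, 416, 374, 21.2, 25.9 and 244 CPM in the same order. From high to low the order was WT with RA (400.3 to 431 CPM by counting error), untreated Wt1 KO (343 to 408), untreated WT (216 to 275), Wt1 KO with RA (26.0 to 133), dox 24 h (20.7 to 31.9) and dox 12 h (13.6 to 31.5). The intervals of neighbours overlap between WT with RA and untreated Wt1 KO, and among the 3 lowest libraries.

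Its partner arm did not follow. mmu-miR-409-3p had 778, 72668, 19438, 12160, 43973 and 8947 reads in the same order of libraries, which are 7201, 10855, 13776, 10743, 12925 and 8213 CPM. The lowest and highest of these are less than a factor of 2 apart.

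With dox, miR-409-5p was at 21.2 CPM after 12 h and 25.9 CPM after 24 h, against 374 CPM in untreated Wt1 KO, and its log2 ratios were -4.12 [-4.80 to -3.55] and -3.84 [-4.20 to -3.53]. It was the lowest of the 351 entries at both times, and next to it came miR-501-3p at 12 h (-3.51 [-3.96 to -3.12]) and miR-5126 at 24 h (-3.10 [-3.33 to -2.88]). For miR-409-3p the log2 ratios were -0.36 [-0.39 to -0.33] and -0.09 [-0.12 to -0.07]. These are the values that chose the group.

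The ratio of the arms within a library needs no scaling. The 5p arm made up 0.892% [0.359 to 1.83] of the miR-409 reads in Wt1 KO with RA, 3.69% [3.55 to 3.82] in WT with RA, 2.64% [2.43 to 2.88] in untreated Wt1 KO, 0.197% [0.126 to 0.293] with dox for 12 h, 0.200% [0.160 to 0.246] with dox for 24 h and 2.89% [2.55 to 3.25] in untreated WT (exact Clopper-Pearson intervals). The 3 libraries made from Wt1 KO cells given an agent were the low ones. The untreated Wt1 KO library and both WT libraries lay at 2.64% or above. The dox libraries among the low ones chose the group, and the share in Wt1 KO with RA rests on 7 reads of the 5p arm. No pattern of treated Wt1 KO cells is therefore read from these shares. In reads of the 3p arm per read of the 5p arm, the values were 111 in Wt1 KO with RA, 26.1 in WT with RA, 36.8 in untreated Wt1 KO, 507 and 499.7 with dox for 12 h and 24 h, and 33.6 in untreated WT. The log2 change of the 5p to 3p ratio was -3.75 [-4.44 to -3.19] for dox 12 h and -3.76 [-4.11 to -3.43] for dox 24 h against untreated Wt1 KO.

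Both arms averaged 50 reads or more in 76 hairpins, which give the background for the arm ratios. A lower 5p to 3p ratio, by the same size rule, was called in 13.2% of them for dox 12 h and in 9.21% for dox 24 h against untreated Wt1 KO. The change of miR-409 was the lowest of the 76 at both times, and the next were miR-290a at 12 h (-2.14) and miR-99b at 24 h (-1.38). These shares stand beside the dox values of miR-409 without being read, since the dox values chose it. Among the 18 other hairpins of the locus, the changes ran from -1.11 to 0.91 at 12 h, and only miR-379 was called, lower. At 24 h they ran from -0.83 to 1.33, and only miR-376b was called, higher. From 12 h to 24 h the arm ratio of miR-409 changed by 0.00 [-0.65 to 0.74], and 1.32% of hairpins were called lower.

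**Figure D2:**
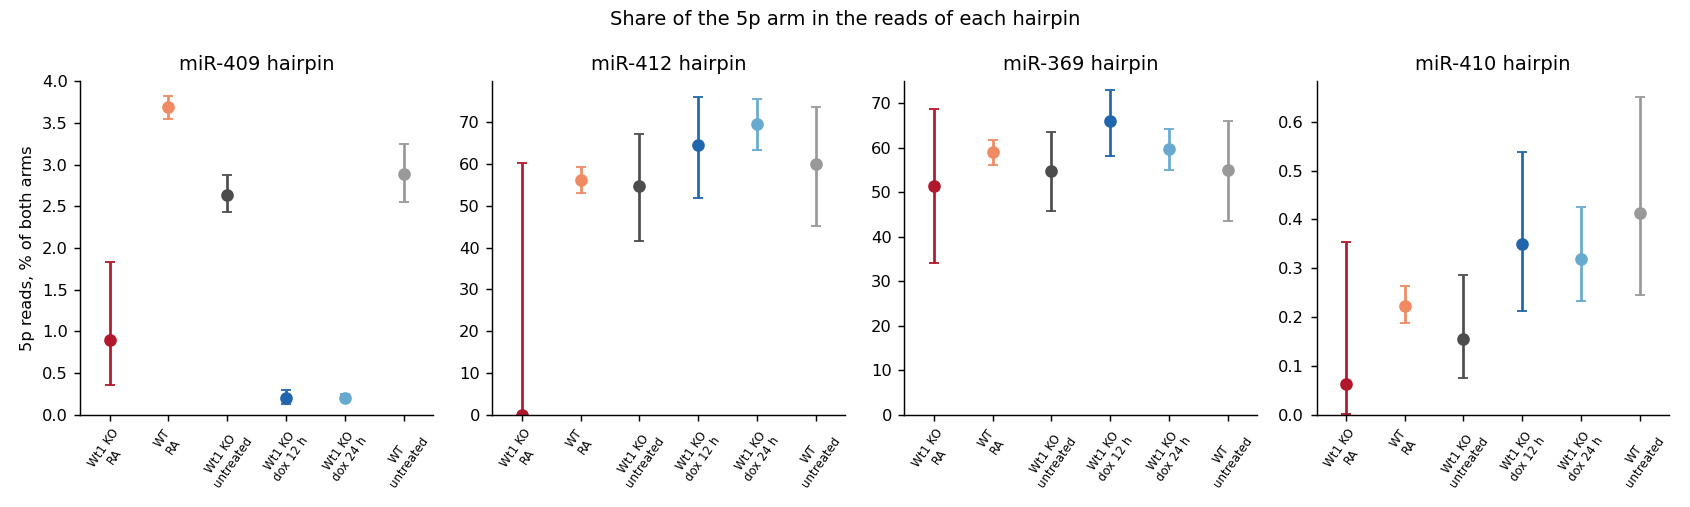
Share of the 5p arm in all reads of the miR-409, miR-412, miR-369 and miR-410 hairpins (linear percent scale, each panel with its own range from 0) in the 6 libraries, with 95% exact binomial intervals. The miR-409 share is 0.197% and 0.200% after dox, 0.892% in Wt1 KO with RA and 2.64% to 3.69% in the other 3 libraries, while the miR-412 and miR-369 shares stay above 50% wherever the hairpin has more than 4 reads.

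**Figure D3:**
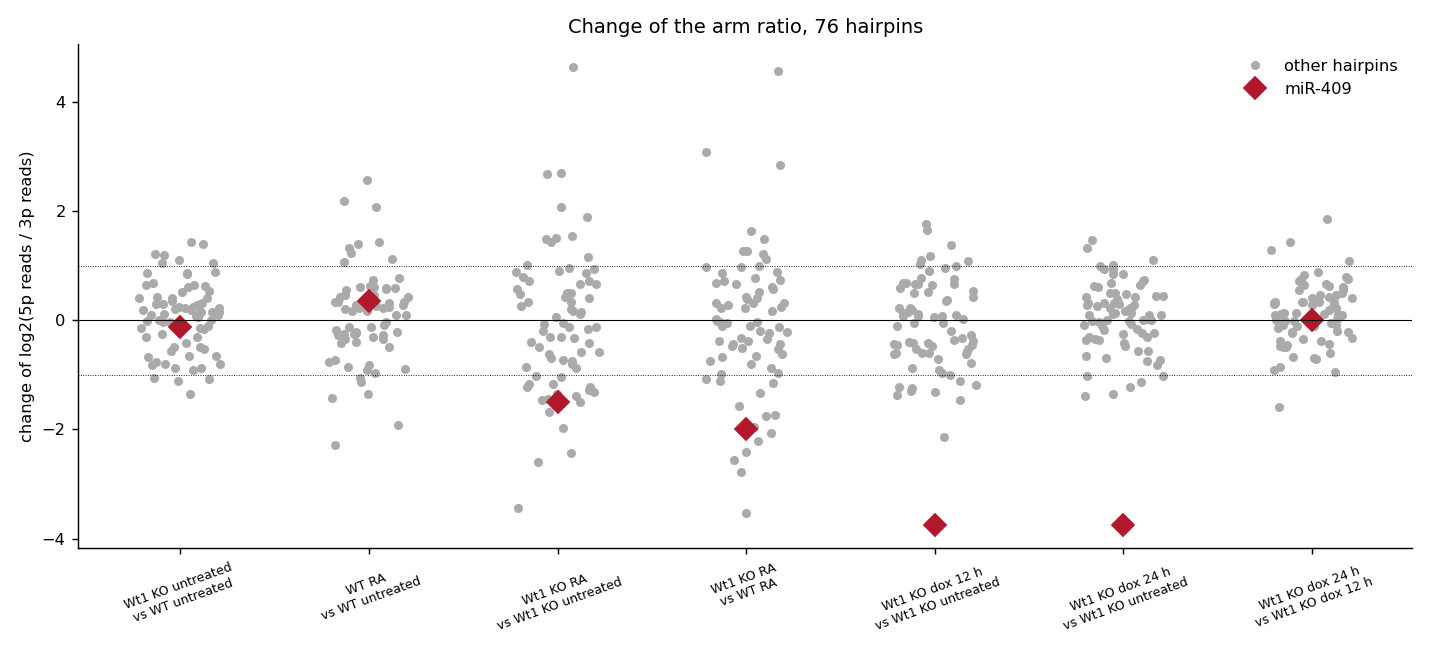
Change of log2(5p reads / 3p reads) between libraries for the 76 hairpins whose arms both average 50 reads or more, in the 7 comparisons, with miR-409 as a diamond and dotted lines at a change of 1 in size. An arm without reads is drawn at a value that depends on the prior count of 0.5, as for miR-412 in Wt1 KO with RA. miR-409 lies at -3.75 and -3.76 in the dox comparisons, -1.50 and -1.99 in those of Wt1 KO with RA, and between -0.13 and 0.36 elsewhere.

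The miR-412 and miR-369 hairpins gave reads of both arms at like numbers. The 5p share of miR-369 was 51.4% in Wt1 KO with RA, 58.9% in WT with RA, 54.8% in untreated Wt1 KO, 65.9% and 59.6% with dox for 12 h and 24 h, and 54.9% in untreated WT. That of miR-412 was 56.2% in WT with RA, 54.7% in untreated Wt1 KO, 64.6% and 69.7% with dox for 12 h and 24 h, and 60.0% in untreated WT. In Wt1 KO with RA, miR-412 had 0 reads of the 5p arm and 4 of the 3p arm, which allows a 5p share of up to 60.2% by the exact interval. Neither hairpin had a called change of arm ratio in any of the 7 comparisons. For dox against untreated Wt1 KO their changes were positive where miR-409 was negative, at 0.59 [-0.51 to 1.71] and 0.93 [0.05 to 1.80] for miR-412 and 0.67 [-0.05 to 1.40] and 0.28 [-0.32 to 0.88] for miR-369, at 12 h and 24 h.

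The miR-410 and miR-541 hairpins were read almost wholly from 1 arm. miR-410-5p had 1 read in Wt1 KO with RA, 143 in WT with RA, 10 in untreated Wt1 KO, 20 and 46 with dox for 12 h and 24 h, and 18 in untreated WT, which is 0.0634% to 0.413% of the hairpin's reads. miR-541-3p had 3 reads in WT with RA, 2 after 24 h of dox and 0 in the other 4 libraries. Both other arms were under the mean count of 50.

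miR-410-5p starts with the same 5 bases, AGGUU, as miR-409-5p. With dox its log2 ratios against untreated Wt1 KO were 1.27 [0.16 to 2.58] at 12 h and 0.91 [-0.07 to 2.08] at 24 h, from 20 and 46 reads against 10. Of the 7 entries that start with these 5 bases, 5 had any read and 2 averaged 50 reads or more, miR-409-5p and miR-92a-1-5p. The ratios of miR-92a-1-5p, a minor strand of the miR-17 to miR-92 cluster, were 5.51 [5.28 to 5.76] and 2.88 [2.64 to 3.13] at 12 h and 24 h. At 12 h miR-92a-1-5p had the highest and miR-409-5p the lowest ratio of the 351 entries. miR-494-5p, with 12 and 36 reads against 20, lay at -0.41 at both times, and miR-496a-5p had 2 and 7 reads against 0. Whether the shared start has a part in these ratios was not tested.

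The highest ratios of the group to untreated Wt1 KO were those of miR-369-5p at 12 h and of miR-412-5p at 24 h of dox. At 12 h, 1 of the 8 miRNAs was called higher and 1 lower, where 4.27% of the 351 entries were called higher and 8.83% lower. The one called higher was miR-369-5p, with 99.0 CPM after 12 h of dox against 48.9 CPM in untreated Wt1 KO and a log2 ratio of 1.01 [0.57 to 1.47], at the edge of the size rule. Over 10 settings, TMM and 9 alternatives, it was called in 8, at 0.97 to 1.34, and it lay above all 59 other entries of the locus. At 24 h none was called higher and 1, miR-409-5p, lower, where 5.70% of entries were called higher and 3.70% lower. The other 7 members had a median log2 ratio of 0.16 at 12 h and 0.43 at 24 h, against -0.14 and -0.08 for the 59 other entries of the locus and -0.08 and -0.01 for all entries. The dox values of these neighbours entered the choice of the group, so the members' dox calls, ranks and medians are a description only.

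miR-412-5p had 37.1 CPM after 12 h of dox and 46.7 CPM after 24 h, against 24.8 CPM in untreated Wt1 KO. Its log2 ratio at 24 h, 0.91 [0.38 to 1.49], lay above 58 of the 59 other entries of the locus and was called in 5 of 10 settings, at 0.89 to 1.22. miR-541-5p had 31696 CPM after 12 h of dox and 47080.5 CPM after 24 h, against 33120.2 CPM in untreated Wt1 KO, with a log2 ratio of 0.51 [0.49 to 0.52] at 24 h. Both were highest at 24 h among these 3 libraries, below the size rule, and the counting intervals of miR-412-5p at 12 h and 24 h overlap. miR-410-3p had 5047 and 4232 CPM at these times, against 4527 CPM in untreated Wt1 KO. Of the 59 other locus entries, 0 were called higher and 3 lower at 12 h (lowest -1.26), and 1 was called higher and 1 lower at 24 h (lowest -1.02). Between 24 h and 12 h of dox 0 of the 8 were called in either direction, where 4.27% of entries were called higher and 0.855% lower. The ratio of 24 h to 12 h was 0.28 [-0.38 to 1.00] for miR-409-5p and 0.57 [0.55 to 0.59] for miR-541-5p.

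**Figure D4:**
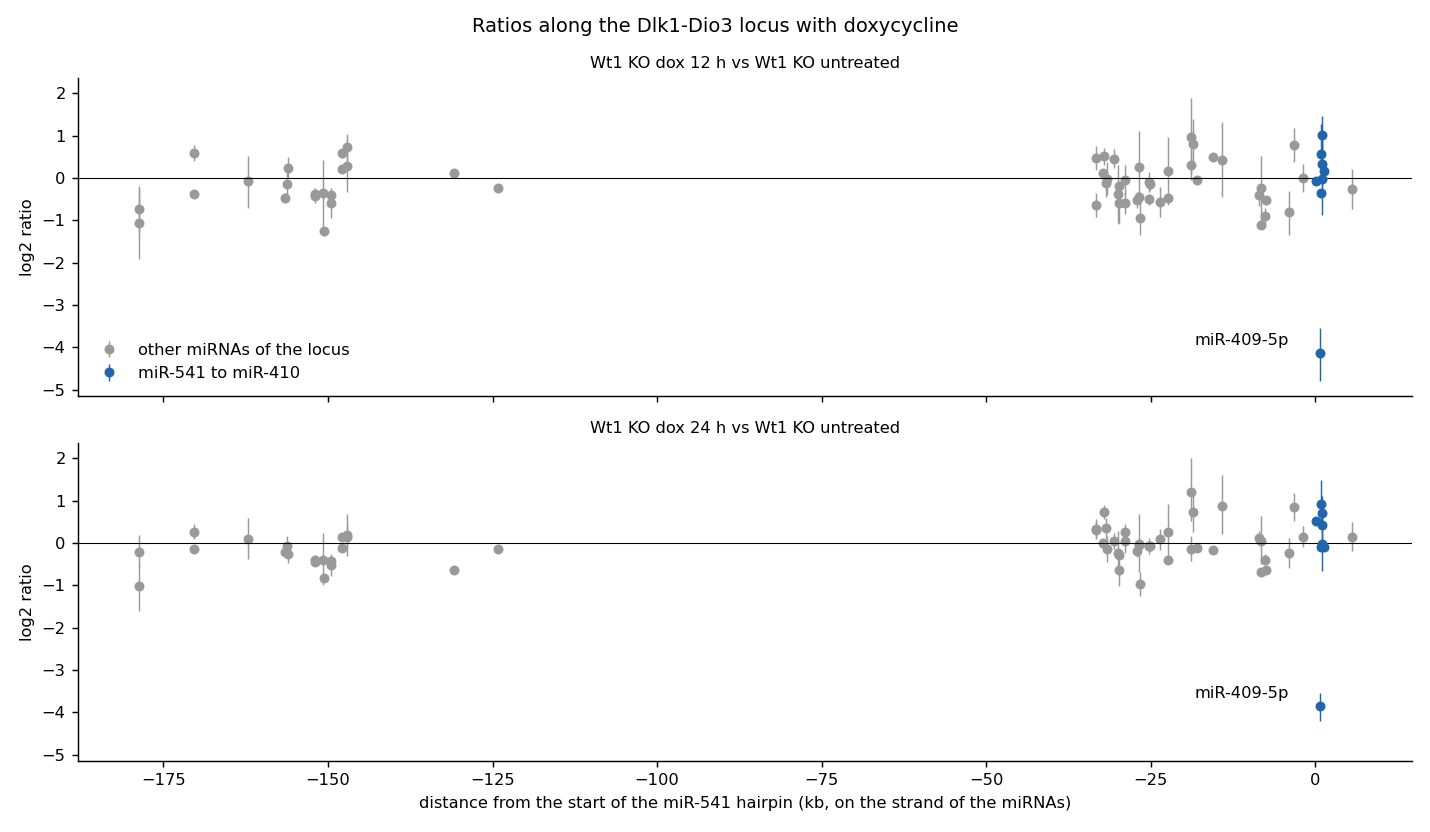
Log2 ratio of dox 12 h (top) and dox 24 h (bottom) to untreated Wt1 KO for 65 miRNAs of the locus, against the distance of their mature strand from the start of the miR-541 hairpin in kb on the strand of the miRNAs, with bars for the 95% counting interval. miR-409-5p lies at -4.12 and -3.84, and every other point at -1.26 or above.

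The miRNA whose pattern over the 6 libraries was most like that of miR-409-5p was miR-501-3p, at a root mean square distance of 0.70 between the centred log2 CPM values. It had 55.5 CPM in Wt1 KO with RA, 452 in WT with RA, 529 in untreated Wt1 KO, 45.9 and 85.5 with dox for 12 h and 24 h, and 665 in untreated WT. miR-99b-5p (0.92) and miR-7226-3p (1.06) came next, and none of the 10 nearest was of the locus. The place of miR-7226-3p depends on the prior count, since it had 0 reads in Wt1 KO with RA and 5 with dox for 12 h. The partner arm miR-409-3p stood at 1.78, close to the median distance of 1.90 over all entries. For miR-409-3p itself the nearest were miR-361-5p (0.14), miR-543-3p (0.16) and miR-9-5p (0.16), with 4 of the locus among its nearest 10. For miR-410-3p they were miR-431-5p (0.18), miR-380-3p (0.19) and miR-676-3p (0.20), with 5 of the locus among its nearest 10. miR-541-5p lay at 0.34 from miR-409-3p and at 1.17 from miR-410-3p. These are likenesses over 6 points that share the scaling factors. The dox values that chose the group are among these points, so the distances of miR-409-5p from its partner arm and from the locus are a description only.

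The comparison of RA-treated with untreated WT cells asks what differed in differentiating cells that have Wt1. The 5 members from the 3 downstream hairpins were higher with RA, and the 3 from the 2 upstream hairpins were not called. miR-410-3p had 9558 CPM in WT with RA against 3987 CPM in untreated WT, a log2 ratio of 1.26 [1.22 to 1.31]. miR-412-5p had 89.9 CPM in WT with RA against 27.5 CPM in untreated WT (1.70 [1.18 to 2.29]). miR-412-3p had 70.1 CPM in WT with RA against 18.4 CPM in untreated WT (1.92 [1.29 to 2.66]).

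Both arms of miR-369 did the same. miR-369-5p had 117 CPM in WT with RA against 41.3 CPM in untreated WT (1.5 [1.07 to 1.97]), and miR-369-3p had 81.4 CPM in WT with RA against 34.0 CPM in untreated WT (1.26 [0.78 to 1.78]). The calls of these 5 miRNAs held in all 10 settings. Upstream, the log2 ratios were 0.51 [0.49 to 0.53] for miR-541-5p, 0.77 [0.59 to 0.95] for miR-409-5p and 0.40 [0.37 to 0.43] for miR-409-3p. In all, 5 of the 8 were called higher and 0 lower, where 22.5% of the 351 entries were called higher and 24.2% lower. The median of the 8 was 1.26, against 0.63 for the 59 other locus entries, of which 21 were called higher and 1 lower, and 0.14 for all entries. The arm ratio of miR-409 changed by 0.36 [0.18 to 0.55], where 7.89% of hairpins were called lower. The ES cell markers took 0.753% of reads in WT with RA against 16.1% in untreated WT.

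In Wt1 KO cells the group had calls of both signs under RA, as had the other entries of the locus. miR-410-3p and both arms of miR-369 were higher with RA, and miR-541-5p and miR-409-5p were lower. miR-410-3p had 14596 CPM in Wt1 KO with RA against 4527 CPM in untreated Wt1 KO, a log2 ratio of 1.69 [1.61 to 1.77]. miR-369-5p had 167 CPM in Wt1 KO with RA against 48.9 CPM in untreated Wt1 KO (1.75 [0.93 to 2.53]), and miR-369-3p had 157 CPM against 40.4 CPM in these libraries (1.94 [1.09 to 2.76]), from 18 and 17 reads in Wt1 KO with RA.

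The lower ones lie at the upstream end. miR-541-5p had 12829 CPM in Wt1 KO with RA against 33120.2 CPM in untreated Wt1 KO (-1.37 [-1.45 to -1.29]). miR-409-5p had 64.8 CPM from 7 reads in Wt1 KO with RA, against 374 CPM in untreated Wt1 KO (-2.52 [-3.85 to -1.48]), below all 59 other entries of the locus. miR-409-3p had 7201 CPM in Wt1 KO with RA against 13776 CPM in untreated Wt1 KO (-0.94 [-1.04 to -0.83]), which missed the size rule and ran from -1.29 to 0.17 over the 9 settings that give a value here, so that its sign depends on the scaling. miR-541-5p was called in 6 of these 9, at -1.72 to -0.27, and the calls of miR-409-5p (-2.87 to -1.42), miR-410-3p (1.34 to 2.79) and both arms of miR-369 held in all 9.

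miR-412-3p had 4 reads in Wt1 KO with RA and 29 in untreated Wt1 KO (0.83 [-1.12 to 2.36]), and miR-412-5p had 0 and 35. miR-412-5p had 24.8 CPM in untreated Wt1 KO, below the 27.8 CPM that 3 reads equal in Wt1 KO with RA. A lower level of it was therefore not detectable at this depth. Its log2 ratio was at most 0.54 by its interval, below the lower limits of miR-410-3p and both arms of miR-369 in this comparison. In all, 3 of the 8 were called higher and 2 lower, where 23.4% of the 351 entries were called higher and 23.1% lower. Of the 59 other locus entries 9 were called higher and 10 lower, so the locus as a whole also had calls of both signs.

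The change of the miR-409 arm ratio with RA in Wt1 KO was -1.50 [-2.92 to -0.53], a call, where 15.8% of the 76 hairpins were called lower. Of the 76 hairpins, 6 had a lower change than miR-409. The mesenchyme and fibroblast list took 0.603% of reads in Wt1 KO with RA against 0.0425% in untreated Wt1 KO, and the ES cell markers 9.40% against 16.9%.

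**Figure D5:**
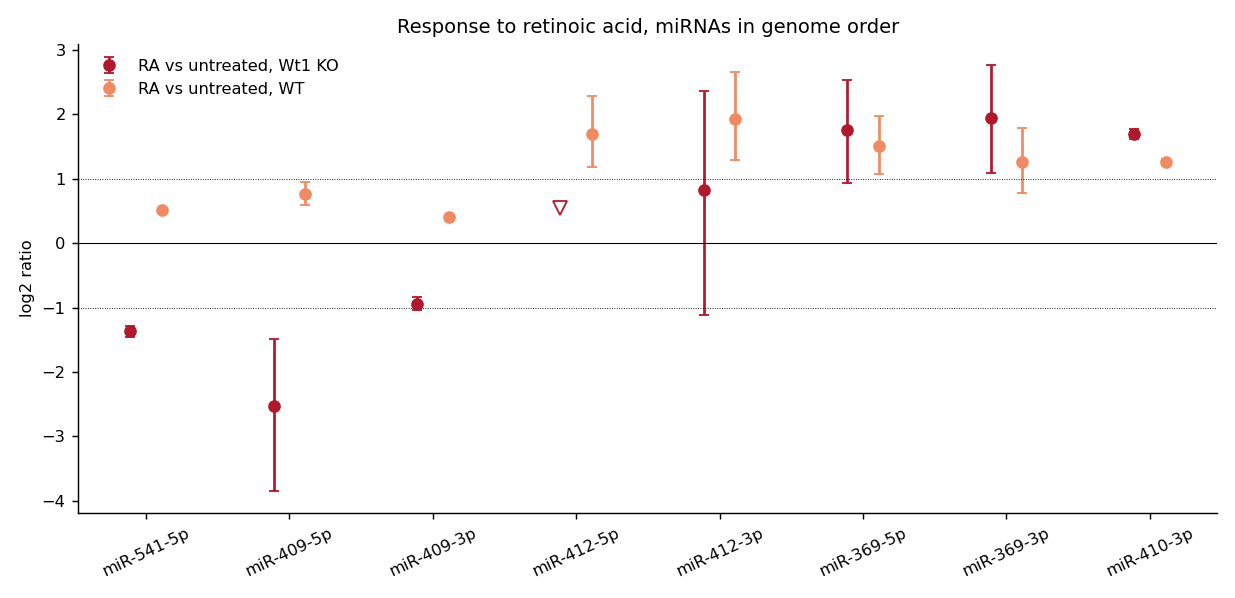
Log2 ratio of RA-treated to untreated cells in Wt1 KO (dark red) and WT (orange) for the 8 miRNAs in genome order, with bars for the 95% counting interval and dotted lines at a ratio of 1 in size. The open triangle is the upper limit for miR-412-5p, which had 0 reads in Wt1 KO with RA. miR-369 and miR-410-3p lie above 1 in both genotypes, while miR-541-5p and both arms of miR-409 lie above 0 in WT and below 0 in Wt1 KO.

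The difference between the genotypes' responses to RA, Wt1 KO minus WT, was -1.88 [-1.96 to -1.80] for miR-541-5p, -3.28 [-4.34 to -2.23] for miR-409-5p and -1.34 [-1.45 to -1.23] for miR-409-3p on the log2 scale. For the downstream miRNAs it was 0.43 [0.34 to 0.52] for miR-410-3p, 0.26 [-0.60 to 1.11] for miR-369-5p and 0.69 [-0.22 to 1.59] for miR-369-3p, and for miR-412-3p it was -1.10 [-2.66 to 0.47]. The intervals of miR-369 and miR-412-3p include 0, so of these downstream miRNAs only miR-410-3p had a difference beyond counting error. No difference was computed for miR-412-5p, also downstream, which had 0 reads in Wt1 KO with RA. Its log2 ratio with RA was 1.70 [1.18 to 2.29] in WT and at most 0.54 in Wt1 KO by its counting interval. Over 9 settings the difference ran from -2.24 to -1.09 for miR-541-5p, from -3.65 to -2.50 for miR-409-5p and from -1.71 to -0.55 for miR-409-3p. It ran from 0.07 to 1.21 for miR-410-3p, from -0.11 to 1.04 for miR-369-5p, from 0.32 to 1.47 for miR-369-3p and from -1.46 to -0.32 for miR-412-3p. The negative sign of the upstream differences thus held in these settings, while the difference of miR-410-3p came near 0 in one of them, TMM with no minimum count.

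Reads of 2 members set against each other within a library need no scaling, and show how one moved relative to the other, not which of them moved. These pairs of members were chosen after their values were seen. miR-410-3p had 1.14 reads per read of miR-541-5p in Wt1 KO with RA, 0.269 in WT with RA, 0.137 in untreated Wt1 KO, 0.159 and 0.0899 with dox for 12 h and 24 h, and 0.160 in untreated WT. The log2 change of this ratio was 3.06 [2.95 to 3.17] for RA in Wt1 KO and 0.75 [0.70 to 0.80] for RA in WT. Wt1 KO with RA was the 1 library with more reads of miR-410-3p than of miR-541-5p.

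miR-410-3p had 2.03 reads per read of miR-409-3p in Wt1 KO with RA, 0.881 in WT with RA, 0.329 in untreated Wt1 KO, 0.470 and 0.327 with dox for 12 h and 24 h, and 0.486 in untreated WT, so the RA libraries were again the high ones. miR-541-5p had 1.78 reads per read of miR-409-3p in Wt1 KO with RA and 2.40 to 3.64 in the other 5 libraries. The log2 change of this last ratio with RA was -0.43 [-0.56 to -0.30] in Wt1 KO and 0.11 [0.07 to 0.14] in WT. For dox 24 h against untreated Wt1 KO, miR-541-5p to miR-409-3p changed by 0.60 [0.57 to 0.63] and miR-410-3p to miR-409-3p by -0.01 [-0.05 to 0.04], so which pair of members moved apart differed between the comparisons.

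Under RA, the comparison of Wt1 KO with WT asks what differed where Wt1 was missing from treated cells. Here 0 of the 8 were called higher and 3 lower, miR-541-5p, miR-409-5p and miR-412-5p, where 17.9% of the 351 entries were called higher and 19.4% lower. miR-541-5p had 12829 CPM in Wt1 KO with RA against 35477 CPM in WT with RA (-1.47 [-1.54 to -1.39]). miR-409-5p had 64.8 CPM in Wt1 KO with RA against 416 CPM in WT with RA (-2.68 [-4.00 to -1.64]). miR-412-5p had 0 reads in Wt1 KO with RA and 89.9 CPM in WT with RA, which is 3.24-fold lower if 3 reads are allowed. Its log2 ratio was at most -1.39 by its counting interval.

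The remaining 5 missed the size rule. miR-369-3p had 157 CPM in Wt1 KO with RA against 81.4 CPM in WT with RA (0.95 [0.16 to 1.64]), and was called higher in 4 of 9 settings, at 0.53 to 1.42. miR-410-3p had 14596 CPM in Wt1 KO with RA against 9558 CPM in WT with RA (0.61 [0.54 to 0.68]), and miR-409-3p had 7201 CPM against 10855 CPM in these libraries (-0.59 [-0.70 to -0.49]). Each of these was called in 1 of 9 settings, miR-410-3p higher at 1.09 and miR-409-3p lower at -1.01. miR-541-5p lost its call in 1 of the 9, at -0.99 with CPM of the reads outside the locus, where 2 of the 8 were called higher and 2 lower. The arm ratio of miR-409 differed by -1.99 [-3.41 to -1.04], a call, where 13.2% of hairpins were called lower and 6 lay below miR-409. Of the 59 other locus entries 4 were called higher and 7 lower. The median of the 8 was -0.75, and -0.76 with miR-412-5p set to 3 reads, against -0.25 for the other locus entries and -0.07 for all entries.

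Without treatment, none of the 8 differed between Wt1 KO and WT by the size rule: 0 were called higher and 0 lower, where 12.3% of the 351 entries were called higher and 15.4% lower. miR-409-3p had 13776 CPM in untreated Wt1 KO against 8213 CPM in untreated WT, a log2 ratio of 0.75 [0.71 to 0.78]. miR-409-5p had 374 CPM in untreated Wt1 KO against 244 CPM in untreated WT (0.62 [0.40 to 0.83]). miR-541-5p had 33120.2 CPM in untreated Wt1 KO against 24941 CPM in untreated WT (0.41 [0.39 to 0.43]).

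Over the 8 miRNAs the ratios ran from -0.15 to 0.75, with a median of 0.24. The 59 other locus entries had a median of 0.43, with 9 called higher and 0 lower, and all entries a median of 0.11. The arm ratio of miR-409 differed by -0.13 [-0.35 to 0.09], where 3.95% of the 76 hairpins were called lower. The 5p share of miR-410 was 0.156% [0.0750 to 0.287] in untreated Wt1 KO and 0.413% [0.245 to 0.651] in untreated WT, a log2 change of -1.37 [-2.68 to -0.21] that rests on 10 and 18 reads of the 5p arm. Scaling by the library total, with 25 entries called higher and 76 lower in place of 43 and 54, shifts all ratios of this comparison by -0.36, and miR-410-3p, miR-412-3p and both arms of miR-369 changed sign under some scalings.

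Other scalings moved the background in other comparisons too. Over the alternatives, all ratios shifted by -0.14 to 0.31 for RA in WT, by -0.35 to 1.10 for RA in Wt1 KO, by -0.42 to 0.47 for Wt1 KO against WT with RA, by -0.04 to 0.33 for dox 12 h and by -0.01 to 0.31 for dox 24 h against untreated Wt1 KO, and by -0.05 to 0.04 between the dox times. The extreme splits of entries called were 113 higher and 77 lower for RA in WT, against 79 and 85 with TMM. For RA in Wt1 KO they were 159 higher and 23 lower in one scaling and 59 higher and 112 lower in another, against 82 and 81 with TMM. For Wt1 KO against WT with RA they were 101 higher and 33 lower or 48 higher and 108 lower, against 63 and 68. For dox they were 44 higher and 9 lower at 12 h, against 15 and 31, and 37 higher and 6 lower at 24 h, against 20 and 13. The direction of the miR-409-5p ratio was the same in every alternative of all 7 comparisons, and the arm ratios and the ratios between members do not depend on scaling.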

How the data were processed

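Small RNA was sequenced in 6 libraries, 1 per group. Per the labels' protocols, adapter-ligated products of miRNA size and of somewhat longer small RNAs were cut from a gel together. The deposited files hold read counts for each mature miRNA, split per the file headers into unique matches and multi-matches. The matching tool, its settings and the genome build were not given in the sources used here. Unique-match counts were used as deposited.

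Counts of the 351 entries with a mean of at least 50 were scaled by TMM (edgeR 4.0.16, R 4.3.3), and the factors ran from 0.798 to 1.29. Log2 ratios used a prior count of 0.5 per library, and their 95% intervals are exact conditional binomial (Clopper-Pearson). Changes of arm ratios have exact conditional odds ratio intervals, and differences of RA responses have intervals from the counts by the delta method (scipy 1.17.1). Reads amplified without molecular identifiers are not independent molecules, so intervals and limits cover counting error only. With 1 library per group, edgeR gives no test. The scripts were tested on simulated counts.

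The members, lists and rules were chosen with earlier results of these data known. Members, their partner arms, the 3 entries nearest in pattern to miR-409-5p, miR-409-3p and miR-410-3p and the hairpins at the ends of a range are named, and other entries were named after their values were seen. RefSeq (GRCm38.p6) placed 48 of the 51 listed other hairpins of the locus. The plot along the locus leaves out 2 measured entries whose mature strand had no place. Alternatives were other scalings (among them DESeq2 1.42.0 size factors), minimum counts, multi-matches, a prior count of 2 and a size of 1.5-fold.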

Additional observations from a re-analysis of the deposited data

Results flagged for a closer look

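For 4 values, the response to RA had opposite signs in the genotypes, with 1 library per group, so that the difference was not tested. The log2 ratios of RA-treated to untreated cells were -1.37 in Wt1 KO and 0.51 in WT for miR-541-5p, a difference of -1.88. They were -2.52 in Wt1 KO and 0.77 in WT for miR-409-5p, a difference of -3.28. They were -0.94 in Wt1 KO and 0.40 in WT for miR-409-3p, a difference of -1.34, where the sign in Wt1 KO depends on the scaling. The change of the 5p to 3p ratio of miR-409 was -1.50 in Wt1 KO and 0.36 in WT, a difference of -1.86.

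The same libraries read as Wt1 KO against WT gave opposite signs with RA and without, also not tested. The ratios were -1.47 with RA and 0.41 untreated for miR-541-5p (difference -1.88), -2.68 with RA and 0.62 untreated for miR-409-5p (-3.29), and -0.59 with RA and 0.75 untreated for miR-409-3p (-1.34). For miR-412-3p they were -0.92 with RA, from 4 reads in Wt1 KO, and 0.16 untreated (-1.08), and the sign without RA changes with the scaling.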

How the results depend on the processing

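The change of the miR-409 arm ratio stayed on its side of the size rule in all 7 comparisons with a prior count of 2. Counting multi-matches cannot move it, since the members have 0 such reads. The number of the 8 miRNAs called for dox 24 h against untreated Wt1 KO was 1, and was 2 with CPM of the library total, with CPM without the Dlk1-Dio3 locus, and with TMM at a minimum mean count of 10 or with none. It was 3 with CPM of the reads outside the ES cell clusters miR-290 and miR-302 and with a size of 1.5-fold. For dox 12 h it was 2, and was 1 with multi-matches counted and with a prior count of 2. With a size of 1.5-fold it was 2 in place of 0 for untreated Wt1 KO against WT, and 6 in place of 3 for Wt1 KO against WT with RA. The share of hairpins with a called arm change, in either direction, was 11.6% in place of 3.95% between the dox times at a minimum mean count of 10, and 36.8% in place of 23.7% for RA in Wt1 KO at a minimum of 200. No called ratio of a member changed sign under the alternatives run. TMM without the Wt1 KO RA library gives no value for the 2 comparisons that use that library. Depth limits Wt1 KO with RA most, since 3 reads there equal 27.8 CPM. No paired analysis was possible because each group holds 1 library.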
